A study of Xenopus tropicalis with 7 samples.

Results

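Embryos of the frog *Xenopus tropicalis* with Xbra and Xbra3 knocked down were compared at stage 32, the early tadpole stage, with embryos at stage 20, the early tailbud stage, to ask which genes still rose or fell over this period and which did not. The comparison used 4 of the 7 poly(A) RNA-seq libraries, namely 3 of Xbra/Xbra3 knockdown (KD) embryos at stage 32 and 1 of uninjected embryos at stage 20. KD embryos had received, as single cells, 20 ng in total of morpholinos, antisense oligonucleotides directed here against the splicing and the translation of *Xbra* and *Xbra3*. The 3 control libraries came from stage 32 embryos that carried 20 ng of a control morpholino and served to show the change from stage 20 in injected embryos in which neither gene was targeted. All embryos were of the wild-type Nigerian (Cam4) strain, and each library held RNA of whole embryos, so fewer cells of a type and less RNA per cell cannot be told apart. Stage, injection and knockdown all differed between KD embryos and the stage 20 library and cannot be told apart in that comparison alone.

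Brachyury proteins are T-box transcription factors that bind DNA and activate genes of the forming mesoderm. In vertebrates they are needed in the tail bud, where stem cells with both neural and mesodermal potential supply the spinal cord and the somites as the axis extends, and in the notochord, the rod of cells along the midline. Between the early tailbud and early tadpole stages the frog embryo elongates its tail, its somites form contractile muscle, and neurons, lens, pigment cells, blood and liver differentiate.

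The libraries held 73740300 to 108103730 counted reads in KD embryos, 79219418 to 120160026 in control embryos and 119004036 at stage 20. Levels are given as counts per 1000000 reads (CPM), scaled between libraries by the trimmed mean of M values (TMM), and can be compared between libraries but not between genes. Significance was taken from edgeR's quasi-likelihood test over 17054 of the 19884 genes in the table, those with at least 10 reads in all, with the Benjamini-Hochberg adjusted p given as the false discovery rate (FDR). A gene was called higher or lower where the FDR was below 10%, the change at least 1.5-fold and, against stage 20, all 3 libraries of the group lay on one side of the stage 20 library. The stage 20 library had no replicate, so it was assumed to vary like the 6 others. Errors are standard errors (SE) of the log2 fold change, with 3 KD libraries and 1 stage 20 library, or 3 libraries on each side where KD was set against control. Of the KD libraries, replicate 2 lay farthest from stage 20 (Euclidean distance of log2 CPM over all genes of 148.4, against 115.1 and 133.6 for replicates 1 and 3), and replicate 2 was also the farthest of the control libraries (154, against 116.6 and 129.2).

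Both targeted transcripts were low in KD embryos. *Xbra* (listed as *t*) had 8.41, 7.57 and 6.13 CPM in KD embryos, 17.4, 9.75 and 16.01 CPM in control embryos and 63.1 CPM at stage 20. *Xbra3* (*t2*) had 0.7596, 0.503 and 0.541 CPM in KD embryos, 27.1, 14.3 and 24.4 CPM in control embryos and 65.6 CPM at stage 20. Every KD library lay below every control library for both genes, and every control library lay below stage 20. From stage 20 to KD embryos *Xbra* fell by 3.10 ± 0.30 (FDR = 0.00093) and *Xbra3* by 6.76 ± 0.36 (FDR = 0.000226) on the log2 scale. Against control embryos the KD level of *Xbra3* was 36.3-fold lower (log2 fold change -5.18 ± 0.32, FDR = 0.00066) and that of *Xbra* 1.95-fold lower (log2 fold change -0.96 ± 0.24, FDR = 0.0496). The call on *Xbra* against control was lost without control library 3 (FDR = 0.161) and also without control library 1 or KD library 2 or 3 (FDR = 0.128, FDR = 0.107 and FDR = 0.143). Morpholinos act on splicing and translation, so transcript levels report only in part on the proteins.

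Most genes that changed after stage 20 in control embryos changed in the same direction in KD embryos. In KD embryos 3258 genes (19.1% of those tested) were higher than at stage 20 and 2915 (17.1%) were lower, while 1170 genes (6.86%) held within 1.5-fold, meaning that the 95% interval of their change lay inside that range. In control embryos 3337 genes (19.6%) were higher than at stage 20 and 2966 (17.4%) were lower. These shares over all genes are the background against which the counts of the gene lists below are to be read. The 2 comparisons share the stage 20 library, so their counts are given side by side and not as independent evidence. Of the genes called higher in KD embryos, 75.7% were called higher in control embryos too, which is 73.9% of the genes called higher in control embryos, and for lower genes the shares were 70.8% and 69.6%. Scaled by library size alone, the split in KD embryos was 3874 higher and 2052 lower, with the median log2 change of all genes at 0.25 in place of 0.04, and changes are read relative to that shift.

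Whether a change after stage 20 differed under the knockdown was tested by setting KD against control at stage 32. In KD embryos 912 genes (5.35%) were lower and 902 (5.29%) were higher than in control embryos. In a fit blocked by replicate number the counts were 1517 and 1654. Without control library 3 they fell to 452 and 407, and the lower count was 562 without KD library 1 and 607 without KD library 2. Among the 3337 genes higher in control embryos than at stage 20, 345 (10.3%) were lower and 127 (3.81%) higher in KD than in control. Of the 345, 115 were still higher than at stage 20, 218 were not called and 12 were called lower than it. Among the 2966 genes lower in control embryos than at stage 20, 314 (10.6%) were higher and 122 (4.11%) lower in KD than in control. Of the 314, 73 were still lower than at stage 20, 233 were not called and 8 were called higher than it. The control libraries both picked these genes and were the baseline of KD against control. Spread among them alone favours the larger share in each set, and its part was not tested. A further 256 genes were called lower in KD embryos than at stage 20 and lower than in control embryos while control embryos gave no call against stage 20, and 283 genes were called higher in the same 2 ways. Counts of KD against control in the gene lists below are to be read against 5.35% of all genes lower and 5.29% higher.

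**Figure D1:**
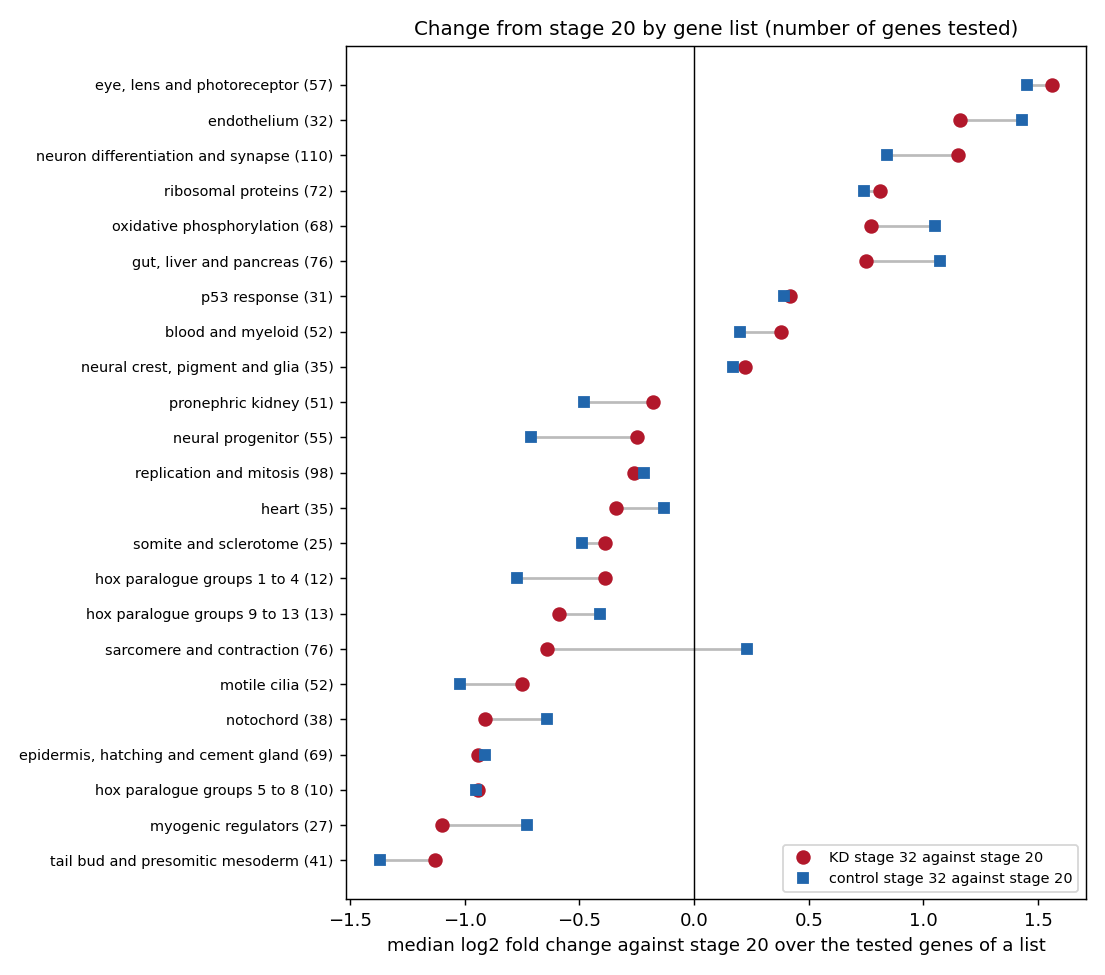
Median log2 fold change against stage 20 over the tested genes of 23 gene lists, for KD embryos (red circles) and control embryos (blue squares) at stage 32, ordered by the KD value. The sarcomere list is the only one whose medians lie on opposite sides of 0 (-0.64 in KD embryos and 0.23 in control embryos). Medians are of fitted folds, which are large for genes with few reads. That of the eye, lens and photoreceptor list (1.56 in KD embryos) was 0.36 to 0.95 in single KD libraries with 0.5 CPM added to each level.

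Genes of the tail bud and presomitic mesoderm, the tissue that segments into somites, fell in both kinds of embryo, and a few fell much further under the knockdown. Of 41 tested, 24 fell and 2 rose in KD embryos, against 32 and 2 in control embryos, and the median log2 change was -1.13 in KD and -1.37 in control embryos (0.04 over all genes tested in each). The 2 rises were 1 in KD embryos without KD library 3 and 1 in control embryos without control library 2 or 3. *msgn1*, a bHLH factor that drives presomitic mesoderm formation, had 0.519, 0.0491 and 0.0177 CPM in KD embryos, 11.9, 5.14 and 13.1 CPM in control embryos and 67.2 CPM at stage 20. *mespb*, a bHLH factor of the segmenting presomitic mesoderm, had 0.0769, 0.0123 and 0 CPM in KD embryos, 1.15, 0.578 and 1.54 CPM in control embryos and 16.8 CPM at stage 20. Its paralogue *mespa* had 0.808, 0.0245 and 0.0355 CPM in KD embryos, 6.11, 2.35 and 4.65 CPM in control embryos and 31.5 CPM at stage 20. For these 3 genes no KD library overlapped a control library, and every control library was itself below stage 20. From stage 20, *mespb* fell by 9.07 ± 0.66 (FDR = 0.000239), *msgn1* by 8.38 ± 0.82 (FDR = 0.000987) and *mespa* by 6.72 ± 0.90 (FDR = 0.00266) on the log2 scale in KD embryos. In control embryos the falls were 3.98, 2.75 and 2.85, and KD lay below control for all 3 (log2 fold changes of -5.08, -5.63 and -3.86, FDR = 0.00607, 0.00654 and 0.0299). The call on *mespa* against control was lost without control library 3 (FDR = 0.108). *mespb* had fewer than 3 reads in KD libraries 2 and 3, where 3 reads were 0.0368 and 0.0266 CPM, so the size of its fitted fall is uncertain.

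Other posterior genes fell to a similar or a smaller extent. The caudal-type homeobox gene *cdx1* had 1.01, 0.638 and 0.594 CPM in KD embryos, 3.203, 2.61 and 1.82 CPM in control embryos and 44.9 CPM at stage 20, which was a fall in KD embryos (log2 fold change -5.9 ± 0.34, FDR = 0.000239) that went below the control level (log2 fold change -1.77 ± 0.29, FDR = 0.0144). *cdx2* had 2.94, 1.71 and 2.404 CPM in KD embryos, 3.78, 3.06 and 3.44 CPM in control embryos and 32.2 CPM at stage 20 and fell (log2 fold change -3.77 ± 0.27, FDR = 0.000456) with no call against control embryos (log2 fold change -0.53 ± 0.23, FDR = 0.191). *cdx4* had 59.2, 29.3 and 44.4 CPM in KD embryos, 39.6, 12.1 and 35.2 CPM in control embryos and 247 CPM at stage 20, so KD and control libraries overlapped and both groups were below stage 20 (FDR = 0.014 for KD), with FDR = 0.419 for KD against control and 0.0122 with the replicate block, where KD was the higher group. Of the hes7 repressors, which take part in the segmentation clock in mouse, *hes7.2* had 1.14, 0.503 and 0.789 CPM in KD embryos, 4.801, 2.61 and 6.05 CPM in control embryos and 23.9 CPM at stage 20 and fell (log2 fold change -4.86 ± 0.46, FDR = 0.000878) to below the control level (FDR = 0.013). The Wnt ligand *wnt3a*, of the same list, went the other way: it had 2.64, 2.16 and 2.03 CPM in KD embryos, 0.799, 0.534 and 0.8401 CPM in control embryos and 1.797 CPM at stage 20, with all 3 KD libraries above stage 20 (no call, FDR = 0.489) and all 3 control libraries below it. KD was higher than control for *wnt3a* (log2 fold change 1.67 ± 0.27, FDR = 0.0136). Whole-embryo libraries do not show which tissue held its RNA. *bmp4*, a BMP ligand, had 109.7, 133 and 142 CPM in KD embryos, 71.4, 72.97 and 86.1 CPM in control embryos and 134 CPM at stage 20 and held within 1.5-fold of stage 20 in KD embryos, while it fell in control embryos (log2 fold change -0.81, FDR = 0.0165). In all, 5 genes of the list were lower and 4 higher in KD than in control, and the higher count was 9 with the replicate block and 2 without KD library 1, control library 2 or control library 3. The T-box gene *eomes* rose in both, with 20.4, 19.3 and 12.9 CPM in KD embryos, 19.5, 22.01 and 15.8 CPM in control embryos and 2.89 CPM at stage 20 (log2 fold change 2.6 ± 0.36, FDR = 0.00297 for KD). Transcripts of *eomes* are also found in the forebrain, which whole-embryo libraries do not separate.

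**Figure D2:**
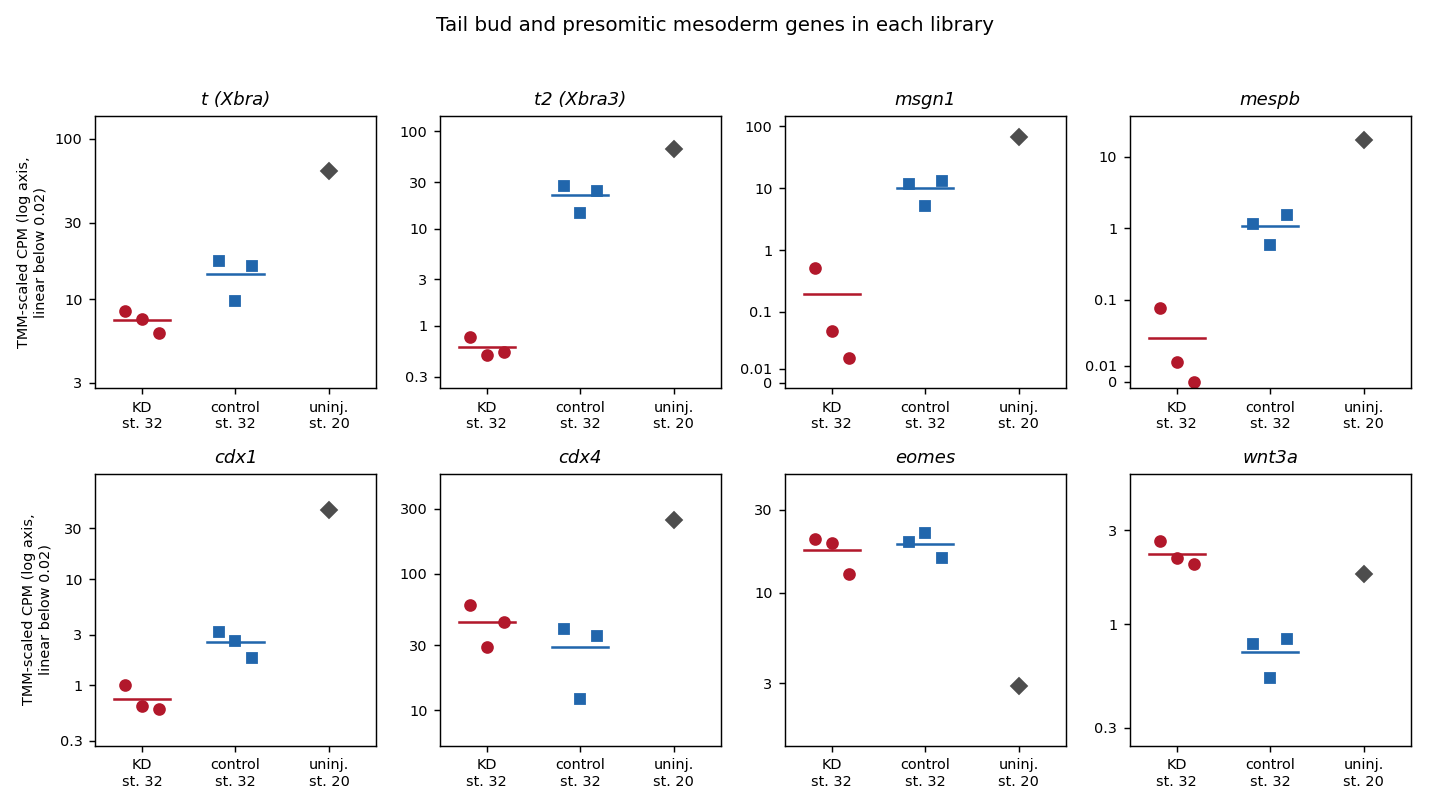
Level of 8 tail bud and presomitic genes in each library, in TMM-scaled CPM on a log axis (linear below 0.02), for KD embryos (red), control embryos (blue) and uninjected embryos at stage 20 (grey). Lines are group means; *msgn1* and *mespb* were below 1 CPM in all 3 KD libraries, and *wnt3a* stayed above its stage 20 level in all 3.

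Myogenic regulators, the transcription factors and cofactors that commit cells to muscle, mostly fell after stage 20, and more of them were called lower in KD than in control embryos. Of 27 tested, 19 fell and 3 rose in KD embryos, against 13 and 3 in control embryos, with medians of -1.10 and -0.73, and 11 were lower and 2 higher in KD than in control (4 lower without control library 3, 5 without KD library 2 and 7 without control library 1, and 1 higher without any 1 library but KD library 2). *myod1*, a master regulator of muscle fate, had 3.49, 4.28 and 5.93 CPM in KD embryos, 19.4, 13.5 and 16.99 CPM in control embryos and 76.5 CPM at stage 20. The 3 KD libraries lay below the 3 control libraries, which lay below stage 20, so that *myod1* fell in KD embryos (log2 fold change -4.06 ± 0.28, FDR = 0.000415) beyond its fall in control embryos (log2 fold change -1.86 ± 0.23, FDR = 0.00546 for KD against control). *smyd1*, a methyltransferase needed for myofibril assembly, had 2.99, 3.41 and 3.76 CPM in KD embryos, 7.84, 6.402 and 8.21 CPM in control embryos and 26 CPM at stage 20, and it too fell (log2 fold change -2.94 ± 0.22, FDR = 0.000456) to below control (FDR = 0.0114). *klhl31*, a kelch-like protein of muscle, had 18.97, 29.5 and 32.8 CPM in KD embryos, 86.6, 117 and 74.8 CPM in control embryos and 121 CPM at stage 20. KD embryos were below stage 20 (log2 fold change -2.16 ± 0.31, FDR = 0.00313) and below control (log2 fold change -1.78 ± 0.24, FDR = 0.00786), while control embryos gave no call (FDR = 0.394). *eya4*, a transcriptional cofactor of the eyes absent family, rose in both groups, with 7.67, 15.2 and 13 CPM in KD embryos, 13.7, 21.2 and 15.2 CPM in control embryos and 0.713 CPM at stage 20 (log2 fold change 4.06 ± 0.55, FDR = 0.00267 for KD). *pax3*, of the dermomyotome and the dorsal neural tube, fell less in KD than in control embryos, with 25.1, 19.03 and 21.2 CPM in KD embryos, 11.9, 8.62 and 13.2 CPM in control embryos and 43.7 CPM at stage 20 (log2 fold change -1.0 ± 0.25, FDR = 0.022 for KD against stage 20 and log2 fold change 0.96 ± 0.19, FDR = 0.0251 for KD against control).

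Somite and sclerotome genes changed alike in number in the 2 groups. Of 25 tested, 12 fell and 8 rose in KD embryos, against 12 and 6 in control embryos. In KD 2 were lower and 2 higher than in control, against 5.35% and 5.29% of all genes. The 8 rises in KD embryos were 4 without KD library 2 and 3 without KD library 3, and with scaling by library size alone 9 rose and 8 fell. Without any 1 library no more than 2 were higher and no more than 1 lower in KD than in control. *nkx3-2*, a homeobox gene of the sclerotome, had 1.46, 2.54 and 2.63 CPM in KD embryos, 2.19, 4.19 and 3.39 CPM in control embryos and 0.241 CPM at stage 20 and rose in KD embryos (log2 fold change 3.19 ± 0.67, FDR = 0.0123). *twist2*, a bHLH factor of mesenchyme, had 1.33, 2.48 and 2.15 CPM in KD embryos, 1.54, 1.98 and 2.25 CPM in control embryos and 0.0556 CPM at stage 20 and also rose (log2 fold change 5.12 ± 0.78, FDR = 0.00392). *meox2*, a homeobox gene of the somite, had 0.423, 0.687 and 1.002 CPM in KD embryos, 1.15, 1.2 and 1.12 CPM in control embryos and 5.47 CPM at stage 20 and fell (log2 fold change -2.94 ± 0.38, FDR = 0.00221). For *nkx3-2* and *twist2* KD and control libraries overlapped, whereas for *meox2* the KD levels were all under the control levels, with FDR = 0.232 against control and 0.0867 with the replicate block.

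Of the 23 gene lists, that of the contractile apparatus had the most genes below the control level in KD embryos. Of 76 sarcomere and contraction genes, 37 fell and 8 rose in KD embryos, against 15 and 23 in control embryos, and the median log2 change was -0.64 in KD and 0.23 in control embryos. Relative to control embryos 48 were lower and none was higher in KD (56 and 0 with the replicate block; 5.35% of all genes were lower). The lower count was 32 without control library 3, 35 without KD library 2 and 36 to 47 without any other 1 library. Of the 23 genes that rose in control embryos, 12 were not called in KD embryos, against 858 of 3337 (25.7%) over all genes. The 8 rises in KD embryos were 5 without KD library 3, and 1 gene was higher than control without control library 1.

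The genes of this list fell into several patterns. Some fell in both groups and further in KD embryos. *myh2*, a myosin heavy chain, had 226, 187 and 186 CPM in KD embryos, 1194, 1027 and 1200 CPM in control embryos and 2319 CPM at stage 20, a fall of 3.54 ± 0.18 on the log2 scale in KD embryos (FDR = 0.000226) and of 1.02 in control embryos. *lmod3*, a leiomodin that builds actin filaments, had 3.48, 4.697 and 7.21 CPM in KD embryos, 21.9, 21.8 and 23.4 CPM in control embryos and 91.2 CPM at stage 20 and fell likewise (log2 fold change -4.15 ± 0.31, FDR = 0.000456 for KD). Some were lower than stage 20 in KD embryos with no call in control embryos. *cacna1s*, the pore of the calcium channel that triggers contraction, had 2.66, 3.61 and 3.57 CPM in KD embryos, 14.5, 14.5 and 14.4 CPM in control embryos and 14.5 CPM at stage 20, so that control libraries lay at the stage 20 level (log2 fold change -0.01) and KD libraries below it (log2 fold change -2.15 ± 0.21, FDR = 0.000987). *mylpf*, the fast regulatory myosin light chain, had 474, 443 and 492 CPM in KD embryos, 1528, 1507 and 1545 CPM in control embryos and 1072 CPM at stage 20, with KD embryos below stage 20 (FDR = 0.00287) and all control libraries above it, though with no call for control (FDR = 0.0658).

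Others rose in control embryos and did not in KD embryos. *tnnc2*, fast troponin C, had 768, 662 and 761 CPM in KD embryos, 1725, 1868 and 1756 CPM in control embryos and 722 CPM at stage 20. It held within 1.5-fold of stage 20 in KD embryos (log2 fold change 0.02 ± 0.19) and rose in control embryos (FDR = 0.00457), and KD was lower than control (log2 fold change -1.29 ± 0.14, FDR = 0.00356). *myoz2*, a Z-disc protein, had 32.1, 26.4 and 33.02 CPM in KD embryos, 107, 94.9 and 112 CPM in control embryos and 31.4 CPM at stage 20 and behaved in the same way, held in KD embryos and raised in control embryos (FDR = 0.00207). *tnnc1*, slow and cardiac troponin C, had 22.5, 19.3 and 22.7 CPM in KD embryos, 73.97, 67.9 and 78.01 CPM in control embryos and 46.1 CPM at stage 20: it fell in KD embryos (log2 fold change -1.1 ± 0.16, FDR = 0.0034) and rose in control embryos (log2 fold change 0.67, FDR = 0.0251). A last group still rose under the knockdown. *ckm*, muscle creatine kinase, had 1004, 1728 and 1266 CPM in KD embryos, 2646, 4973 and 3372 CPM in control embryos and 254 CPM at stage 20, a rise in KD embryos (log2 fold change 2.39 ± 0.47, FDR = 0.00959) that stopped short of the control level (log2 fold change -1.46 ± 0.29, FDR = 0.0257). *myoz1*, a further Z-disc protein, had 23.8, 29.8 and 35.9 CPM in KD embryos, 49.8, 79.5 and 58.7 CPM in control embryos and 5.39 CPM at stage 20, and it too rose in KD embryos (log2 fold change 2.47 ± 0.36, FDR = 0.00335) and stayed below control (FDR = 0.0257). *acta1*, skeletal alpha-actin, had 7.12, 6.11 and 4.64 CPM in KD embryos, 13.2, 8.48 and 7.79 CPM in control embryos and 0.454 CPM at stage 20 and rose (log2 fold change 3.71 ± 0.52, FDR = 0.00301), with FDR = 0.13 against control and 0.00707 with the replicate block. *actn2*, alpha-actinin of the Z-disc, had 4.298, 6.43 and 5.36 CPM in KD embryos, 4.05, 6.29 and 4.82 CPM in control embryos and 1.16 CPM at stage 20, so that KD and control libraries overlapped, both above stage 20 (log2 fold change 2.21 ± 0.41, FDR = 0.00767 for KD).

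Large falls were also seen among notochord genes. Of 38 notochord genes 22 fell and 1 rose in KD embryos, against 17 and 5 in control embryos (medians of -0.91 and -0.64), and 13 were lower and 1 higher in KD than in control. The 5 rises in control embryos were 3 without control library 3, the 1 rise in KD embryos was lost without KD library 3, and 2 genes were higher than control without control library 1. *emilin3*, an elastin-associated matrix protein, had 2.19, 4.28 and 2.86 CPM in KD embryos, 21.9, 13.01 and 15.8 CPM in control embryos and 149.8 CPM at stage 20, a fall in KD embryos (log2 fold change -5.6 ± 0.35, FDR = 0.000284) that went past the control level (log2 fold change -2.45 ± 0.29, FDR = 0.00495). *lect1*, which encodes chondromodulin, had 6.88, 8.25 and 6.76 CPM in KD embryos, 84.1, 56.6 and 65.3 CPM in control embryos and 84.1 CPM at stage 20. Control libraries of *lect1* were at or below stage 20 with no call (FDR = 0.367), and KD libraries were all below them (log2 fold change -3.53 ± 0.22, FDR = 0.000284 against stage 20). *cav1* and *cav2* encode caveolins, which form membrane pits that are abundant in notochord cells. *cav2* had 13.5, 12.2 and 17.2 CPM in KD embryos, 79.9, 47.2 and 67.2 CPM in control embryos and 112 CPM at stage 20 and fell in KD embryos (log2 fold change -2.97 ± 0.27, FDR = 0.000828) to below control (FDR = 0.00319). *cav1* had 0.0865, 0.0858 and 0.142 CPM in KD embryos, 0.887, 0.613 and 0.517 CPM in control embryos and 1.57 CPM at stage 20 and fell as well (log2 fold change -3.86 ± 0.47, FDR = 0.0019). *chrd*, the BMP antagonist chordin, fell in both, with 13.7, 9.75 and 12.2 CPM in KD embryos, 16.7, 7.66 and 11.6 CPM in control embryos and 146 CPM at stage 20 (log2 fold change -3.62 ± 0.34, FDR = 0.000892 for KD). The difference between KD and control for *chrd* was -0.01 on the log2 scale, with a 95% interval of -0.64 to 0.62.

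*epyc*, a small proteoglycan of cartilage, was called in opposite directions: it had 2.904, 8.61 and 5.597 CPM in KD embryos, 68.4, 93.2 and 65.2 CPM in control embryos and 16.1 CPM at stage 20, below stage 20 in KD embryos (log2 fold change -1.51 ± 0.45, FDR = 0.0415) and above it in control embryos (FDR = 0.0201). Without KD library 3 the fall of *epyc* from stage 20 was no longer called (FDR = 0.105). *matn3*, a matrilin, was near 0 at stage 20 and stayed there in KD embryos, with 0.0577, 0 and 0.0177 CPM in KD embryos, 1.33, 2.23 and 1.19 CPM in control embryos and 0.0556 CPM at stage 20, whereas it rose in control embryos (FDR = 0.0044), and KD lay below control (log2 fold change -5.84 ± 0.62, FDR = 0.00221). 2 further matrix genes were outside the list. *eln2*, an elastin gene, had 0.423, 0.184 and 0.284 CPM in KD embryos, 62.5, 30.8 and 46.8 CPM in control embryos and 41.8 CPM at stage 20. Its KD libraries held 44, 15 and 32 reads, against 7049, 3512 and 3618 in control libraries and 4515 at stage 20. *eln2* thus fell in KD embryos (log2 fold change -7.1 ± 0.42, FDR = 0.000239), while control libraries lay on both sides of stage 20 (FDR = 0.773). *lox*, the lysyl oxidase that cross-links elastin and collagen, had 3.62, 6.304 and 3.73 CPM in KD embryos, 80.8, 57.5 and 59.8 CPM in control embryos and 91.1 CPM at stage 20, and it also fell in KD embryos (log2 fold change -4.33 ± 0.30, FDR = 0.000426) with no call in control embryos (FDR = 0.297).

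**Figure D3:**
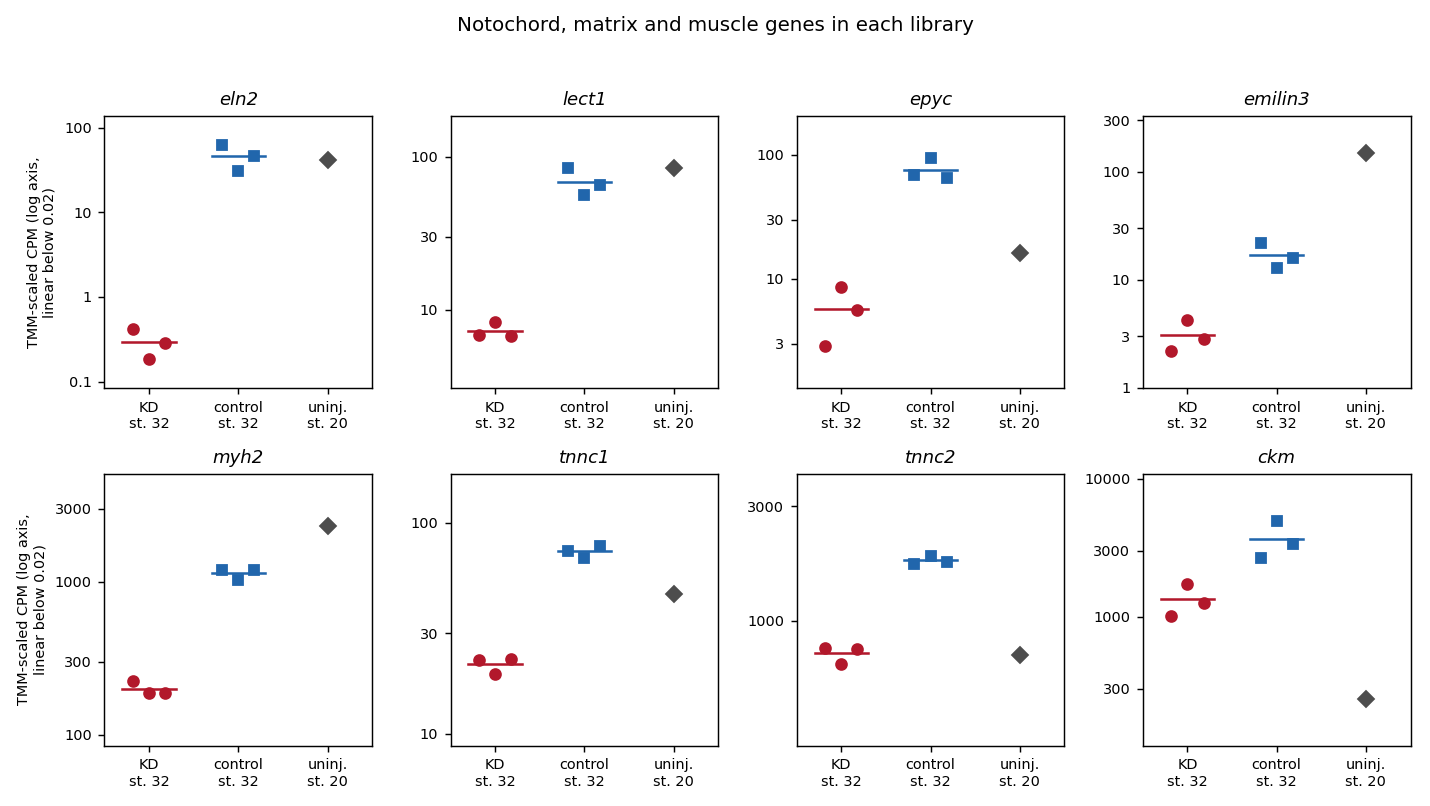
Level of 8 notochord, matrix and muscle genes in each library, in TMM-scaled CPM on a log axis, with group means as lines. KD libraries (red) lie below every control library (blue) in all 8 panels; against stage 20 (grey) the KD libraries are lower for 6 genes, on both sides of it for *tnnc2* and higher for *ckm*.

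Neural progenitor genes mostly fell in control embryos, and few of them were called lower than stage 20 in KD embryos. Of 55 tested, 8 fell and 3 rose in KD embryos, against 32 and 2 in control embryos, with medians of -0.25 and -0.71, and 15 were higher and none lower in KD than in control (5.29% of all genes were higher). In the main fit 14.55% of the list fell and 5.46% rose in KD embryos, against 17.1% and 19.1% of all genes. With scaling by library size alone 7 rose and 4 fell in KD embryos, so the balance of this list in KD embryos rests on the scaling. The 8 falls in KD embryos were 5 without KD library 2 and 4 without KD library 3, and the 15 genes above control were 7 without control library 3, 9 without control library 2 and 8 without KD library 1. *sox2*, a SoxB1 factor that maintains neural progenitors, had 135, 118 and 101 CPM in KD embryos, 84.1, 64.8 and 83.8 CPM in control embryos and 159 CPM at stage 20. Its KD libraries all lay between the control libraries and stage 20, with no call against stage 20 (FDR = 0.165) and a call against control (log2 fold change 0.61 ± 0.16, FDR = 0.0576). That call was lost without control library 3 (FDR = 0.137), control library 2 (FDR = 0.11), KD library 1 (FDR = 0.126) or KD library 2 (FDR = 0.117). *zic1*, a zinc finger factor of the dorsal neural tube, had 85.6, 74.2 and 78.5 CPM in KD embryos, 39.4, 39.2 and 43.9 CPM in control embryos and 90.2 CPM at stage 20, and it held within 1.5-fold of stage 20 in KD embryos while it fell in control embryos (FDR = 0.00262). *zic2*, of the same family, had 18.2, 16.1 and 15.2 CPM in KD embryos, 6.34, 7.81 and 9.46 CPM in control embryos and 19.3 CPM at stage 20 and was higher in KD than in control (log2 fold change 1.07 ± 0.18, FDR = 0.0147). *rfx4*, a factor of neural progenitors and ciliated neuroepithelium, had 32.3, 30.8 and 27.4 CPM in KD embryos, 15.2, 12.7 and 14.4 CPM in control embryos and 26.3 CPM at stage 20, with all KD libraries above stage 20 (FDR = 0.443) and all control libraries below it (log2 fold change 1.09 ± 0.13, FDR = 0.00536 for KD against control).

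Some progenitor genes fell in both groups but less far under the knockdown. *olig4*, a bHLH factor of the neural plate, had 8.18, 4.48 and 10.01 CPM in KD embryos, 2.13, 0.885 and 2.42 CPM in control embryos and 18.1 CPM at stage 20 and was higher in KD than in control (log2 fold change 2.09 ± 0.42, FDR = 0.0259). Its own fall from stage 20 in KD embryos (FDR = 0.0956) was lost without any 1 of the KD libraries (FDR = 0.125, FDR = 0.171 and FDR = 0.103 without replicates 1, 2 and 3). *foxb1*, a forkhead gene of the neural tube, had 35.3, 26.5 and 32.6 CPM in KD embryos, 23.1, 13.6 and 22.4 CPM in control embryos and 79.03 CPM at stage 20, a fall in KD embryos (log2 fold change -1.33 ± 0.29, FDR = 0.0134) with FDR = 0.103 against control and 0.0028 with the replicate block. *fabp7*, a fatty acid binding protein of radial glia, rose in both, with 235, 372 and 170.1 CPM in KD embryos, 249.5, 574 and 223 CPM in control embryos and 12.9 CPM at stage 20 (log2 fold change 4.33 ± 0.77, FDR = 0.00669 for KD).

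Of the genes of neuron differentiation and synapses, more rose than fell in both groups. Of 110 tested, 58 rose and 6 fell in KD embryos, against 44 and 8 in control embryos, with medians of 1.15 and 0.84. Relative to control embryos 15 were higher and none lower in KD, and these counts were 28 and 1 with the replicate block. The higher count was 5 without control library 3, 9 without KD library 2 or 3 and 24 without control library 2, and the 6 falls in KD embryos were 1 without KD library 2 or 3. *nefh*, the heavy neurofilament chain of axons, had 4.29, 7.95 and 4.12 CPM in KD embryos, 3.95, 6.07 and 5.95 CPM in control embryos and 0.0371 CPM at stage 20 and rose in both (log2 fold change 7.15 ± 0.91, FDR = 0.00213 for KD). *stmn4*, a neuronal regulator of microtubules, had 11.4, 32.5 and 14.9 CPM in KD embryos, 4.75, 10.6 and 7.34 CPM in control embryos and 0.0185 CPM at stage 20. At stage 20 *stmn4* had 2 reads, and the mean KD level was 1058-fold higher, with an exact Poisson 95% interval of 293 to 8735 in counting error. *scn2a*, a neuronal sodium channel, had 1.89, 2.6 and 1.95 CPM in KD embryos, 0.843, 1.17 and 0.892 CPM in control embryos and 0.278 CPM at stage 20, a rise in KD embryos (log2 fold change 2.94 ± 0.48, FDR = 0.00511). *neurog3*, a proneural bHLH factor, had 14.2, 9.8 and 10.6 CPM in KD embryos, 6.43, 4.07 and 5.96 CPM in control embryos and 5.198 CPM at stage 20, with KD libraries all above stage 20 (log2 fold change 1.15 ± 0.35, FDR = 0.042) and control libraries on both sides of it (FDR = 0.879). KD was higher than control for *neurog3* (log2 fold change 1.08 ± 0.23, FDR = 0.0334), a call that was lost without control library 3 (FDR = 0.108). *prdm14*, of the PR-domain family, fell by 2.89 on the log2 scale in control embryos and had 6.91, 5.32 and 6.02 CPM in KD embryos, 1.81, 1.09 and 1.59 CPM in control embryos and 11.1 CPM at stage 20, so that KD was higher than control (log2 fold change 2.03 ± 0.24, FDR = 0.00507). Its smaller fall from stage 20 in KD embryos (FDR = 0.0606) was not called without KD library 2 (FDR = 0.138) or 3 (FDR = 0.128).

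**Figure D4:**
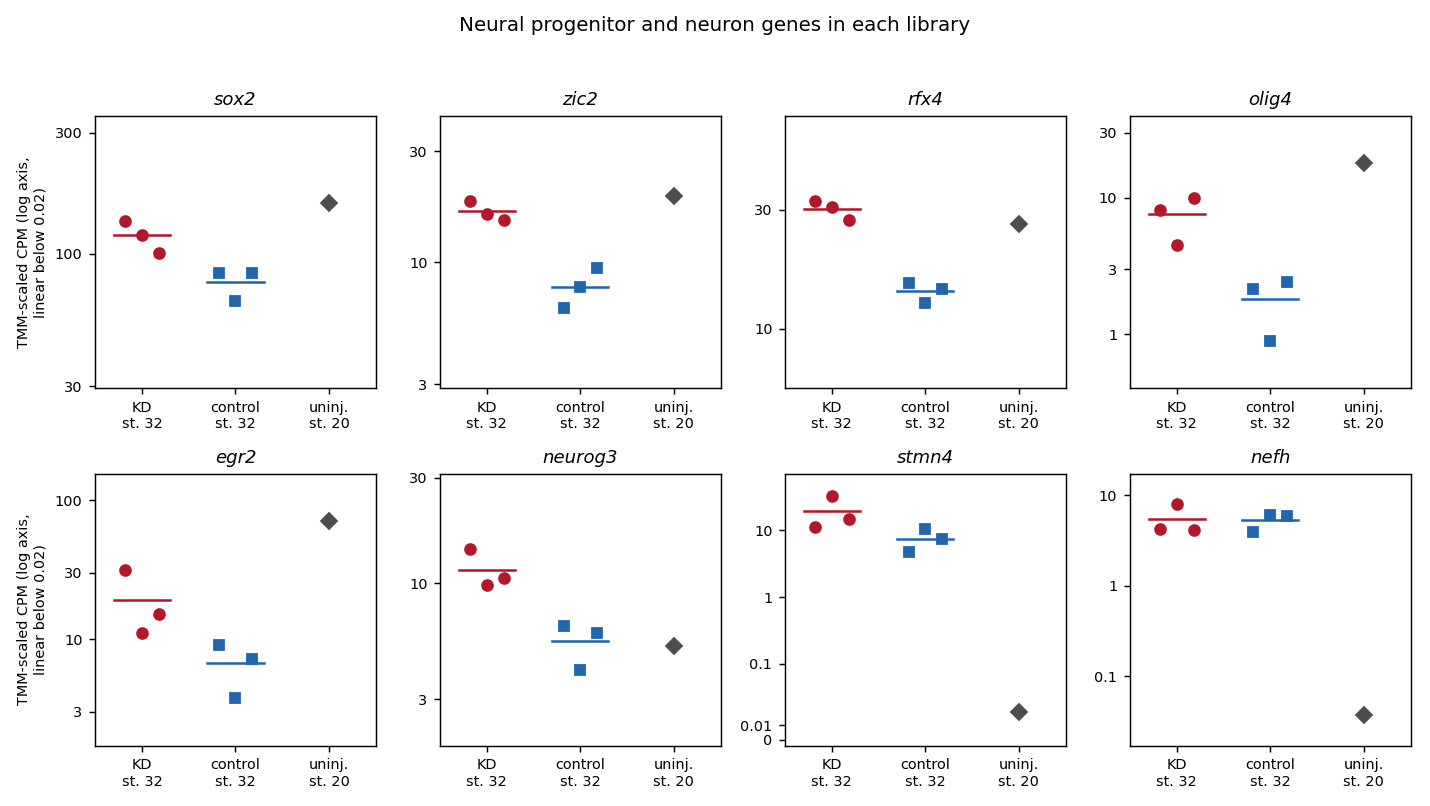
Level of 8 neural genes in each library, in TMM-scaled CPM on a log axis (linear below 0.02), with group means as lines. *sox2*, *zic2*, *rfx4*, *olig4* and *egr2* are lower at stage 32 in control embryos (blue) than at stage 20 (grey) and are higher in every KD library (red) than in any control library, while *stmn4* and *nefh* are far above stage 20 in all 6 stage 32 libraries.

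Many eye and lens genes rose after stage 20 in KD as in control embryos. Neural crest, pigment and glia genes rose and fell in similar numbers. Of 57 eye, lens and photoreceptor genes 20 rose and 3 fell in KD embryos, against 17 and 7 in control embryos, with medians of 1.56 and 1.45. Fitted folds of genes near 0 CPM enter these medians in full, and 34 of the 57 had no call in KD embryos. With 0.5 CPM added to each level, the medians were 0.36, 0.95 and 0.47 in KD libraries 1, 2 and 3. Relative to control 3 were higher and none was lower, against 5.29% and 5.35% of all genes. With the replicate block 6 were higher and 9 lower. The higher count was 5 without control library 2, and 2 and 1 genes were lower than control without KD library 2 and control library 3. The 3 falls in KD embryos were 1 without KD library 3, and the 7 in control embryos were 4 without control library 3. *mip*, the water channel of lens fibres, had 8.85, 28.8 and 9.62 CPM in KD embryos, 14.8, 14.2 and 18.6 CPM in control embryos and 0 CPM at stage 20. *crybb1*, a beta crystallin of the lens, had 56.5, 128 and 60.7 CPM in KD embryos, 94.6, 77.4 and 91.8 CPM in control embryos and 1.74 CPM at stage 20 and rose in KD embryos (log2 fold change 5.55 ± 0.62, FDR = 0.0014). With no read of *mip* at stage 20, the mean KD level was at least 567-fold higher, taking a floor of 3 reads in that library. The crystallins *cryaa* and *crygb*, both at low levels, rose in KD embryos with no call in control embryos. *cryaa* had 68, 40 and 26 reads in KD libraries, 2, 1 and 1 in control libraries and 2 at stage 20. *crygb* had 83, 64 and 95 reads in KD libraries, 3, 22 and 5 in control libraries and 11 at stage 20. Both were higher in KD than in control (FDR = 0.00329 and 0.0135). Of 35 neural crest, pigment and glia genes 10 rose and 12 fell in KD embryos, against 11 and 12 in control embryos. In KD 2 were lower and 5 higher than in control, against 5.35% and 5.29% of all genes. The higher count was 8 with the block, 3 without KD library 1 and 2 without KD library 3 or control library 3. With scaling by library size alone 11 rose and 8 fell in KD embryos. *tyr*, the tyrosinase of melanin synthesis, had 69.9, 142 and 81.6 CPM in KD embryos, 50.1, 111 and 75.4 CPM in control embryos and 0.111 CPM at stage 20 and rose in KD embryos (log2 fold change 9.77 ± 0.95, FDR = 0.000976). *slc45a2*, a transporter of the melanosome, had 73.04, 93.2 and 66.01 CPM in KD embryos, 39.7, 47.96 and 40.8 CPM in control embryos and 1.75 CPM at stage 20, a rise (log2 fold change 5.47 ± 0.32, FDR = 0.000239) past the control level (log2 fold change 0.85 ± 0.16, FDR = 0.0197). *snai2*, a factor of migrating crest cells, had 48.4, 37.6 and 42.9 CPM in KD embryos, 33.9, 34.3 and 35.6 CPM in control embryos and 117 CPM at stage 20 and fell (log2 fold change -1.44 ± 0.16, FDR = 0.00151). *pnp*, purine nucleoside phosphorylase, had 61.2, 100.2 and 84.9 CPM in KD embryos, 322, 385 and 330.4 CPM in control embryos and 70.4 CPM at stage 20: it rose in control embryos (FDR = 0.00268) and not in KD embryos (FDR = 0.55), with KD lower than control (log2 fold change -2.07 ± 0.19, FDR = 0.00282). *gch1*, the first enzyme of pteridine synthesis, had 19.6, 17.6 and 17.1 CPM in KD embryos, 36.6, 30.96 and 34.1 CPM in control embryos and 71.8 CPM at stage 20 and fell further in KD embryos (log2 fold change -1.99 ± 0.16, FDR = 0.000531) than in control embryos (FDR = 0.00785 for KD against control).

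Blood, vessel and heart genes were called against stage 20 in similar numbers in KD and control embryos. Of 52 blood and myeloid genes 22 rose and 9 fell in KD embryos, against 22 and 12 in control embryos. In KD 5 were lower and 9 higher than in control (7 and 14 with the block), against 5.35% and 5.29% of all genes. Without control library 3 these counts were 2 and 3, without KD library 1 or 3 they were 2 and 5, and the lower count was 3 without control library 1 or 2. *hbz*, an embryonic globin chain with close copies, had 157, 342 and 432 CPM in KD embryos, 171, 222 and 209 CPM in control embryos and 0.426 CPM at stage 20 and rose in KD embryos (log2 fold change 9.51 ± 0.83, FDR = 0.000726). *mmp9*, a matrix metalloprotease of myeloid cells, had 7.26, 9.28 and 6.24 CPM in KD embryos, 1.86, 2.28 and 0.814 CPM in control embryos and 0.222 CPM at stage 20, a rise in KD embryos (log2 fold change 5.08 ± 0.72, FDR = 0.00322) to above control (log2 fold change 2.17 ± 0.35, FDR = 0.013). *lmo2*, a cofactor in blood and endothelial precursors, had 29.4, 18.6 and 13.4 CPM in KD embryos, 28.1, 21.8 and 23.2 CPM in control embryos and 80.6 CPM at stage 20 and fell (log2 fold change -1.98 ± 0.35, FDR = 0.00661).

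Of 32 endothelial genes 16 rose and 5 fell in KD embryos, against 17 and 4 in control embryos (medians of 1.16 and 1.43). In KD 2 were lower and 1 higher than in control, against 5.35% and 5.29% of all genes. These counts were 5 and 3 with the block. The lower count was 1 without KD library 3 or control library 3, and the higher count was 2 without control library 1 or 2. *cdh5*, the cadherin of endothelial junctions, had 13.02, 14.3 and 13.6 CPM in KD embryos, 27.6, 33.8 and 27.4 CPM in control embryos and 1.14 CPM at stage 20, a rise in KD embryos (log2 fold change 3.58 ± 0.26, FDR = 0.000456) that stayed below the control level (log2 fold change -1.12 ± 0.14, FDR = 0.00546). *stab2*, a scavenger receptor, had 81.1, 131 and 125 CPM in KD embryos, 129.9, 202 and 153 CPM in control embryos and 6.62 CPM at stage 20 and rose (log2 fold change 4.08 ± 0.42, FDR = 0.00104). *robo4*, an endothelial guidance receptor, had 30.9, 31.6 and 30.1 CPM in KD embryos, 8.598, 9.77 and 12.02 CPM in control embryos and 39.4 CPM at stage 20: it fell in control embryos (FDR = 0.00139) with no call in KD embryos (FDR = 0.221), and KD was higher than control (log2 fold change 1.61 ± 0.15, FDR = 0.00284). Of 35 heart genes 8 rose and 11 fell in KD embryos, against 9 and 10 in control embryos. In KD 5 were lower and 3 higher than in control (7 and 7 with the block), against 5.35% and 5.29% of all genes. The lower count was 2 without control library 3 and 3 without KD library 1 or 2, and the higher count was 1 without KD library 1, KD library 3 or control library 3. With scaling by library size alone 9 rose and 8 fell in KD embryos. In the main fit 22.9% of the heart list rose and 31.4% fell in KD embryos, against 19.1% and 17.1% of all genes. The heart list shares members with the muscle lists, among them *tnnc1* and *smyd1*, both lower in KD than in control. Its counts are therefore not of heart alone. *myl7*, the atrial light chain, had 15.5, 24.9 and 26.3 CPM in KD embryos, 9.91, 26.3 and 13.01 CPM in control embryos and 0.195 CPM at stage 20, and *myh6*, a cardiac myosin heavy chain, had 117, 151 and 140 CPM in KD embryos, 63.9, 134 and 104 CPM in control embryos and 14.9 CPM at stage 20. Both rose in KD embryos (log2 fold changes of 6.83 ± 0.89 and 3.19 ± 0.44, FDR = 0.00244 and 0.00288), and KD and control libraries overlapped.

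Of the liver and gut genes, more were called higher than lower in KD embryos. Of 76 gut, liver and pancreas genes 24 rose and 14 fell in KD embryos, against 35 and 15 in control embryos, with medians of 0.75 and 1.07. With 0.5 CPM added to each level, which damps folds of genes near 0 CPM, the medians were 0.21, 0.52 and 0.39 in KD libraries 1, 2 and 3. In KD embryos 31.6% of the list rose and 18.4% fell, against 19.1% and 17.1% of all genes. The list shares *cdx1* and *cdx2* with the tail bud list. Both fell in KD embryos, and *cdx1* was also called below control. The counts are therefore not of gut, liver and pancreas alone. Relative to control 11 were lower and none was higher in KD, and with the replicate block 29 were lower and 4 higher. The lower count was 4 without control library 3, KD library 2 or KD library 3, 5 without KD library 1 and 7 without control library 2, and 1 gene was higher without KD library 1 or 2 or control library 1 or 2. *fga*, a fibrinogen chain made by liver, had 50.6, 144 and 124 CPM in KD embryos, 129, 331 and 217 CPM in control embryos and 0.0185 CPM at stage 20. With 2 reads of *fga* at stage 20 the mean KD level was 5749-fold higher, with an exact Poisson 95% interval of 1591 to 47470, and the FDR against control was 0.17 and 0.000482 with the replicate block. *APOB*, the main protein of very low density lipoprotein, had 215, 705 and 528 CPM in KD embryos, 641, 2050 and 789 CPM in control embryos and 1.12 CPM at stage 20 and rose in KD embryos (log2 fold change 8.75 ± 1.28, FDR = 0.00345), with FDR = 0.189 against control and 0.00246 with the replicate block. *rbp4*, the retinol carrier of plasma, spread widely between replicates, with 71.1, 499 and 283 CPM in KD embryos, 258, 973 and 492 CPM in control embryos and 0.0741 CPM at stage 20, and rose (log2 fold change 11.88 ± 2.03, FDR = 0.00598). *serpinc1*, antithrombin, had 56.1, 63.7 and 75.5 CPM in KD embryos, 176, 158 and 146 CPM in control embryos and 51.5 CPM at stage 20: it rose in control embryos (FDR = 0.00298) with no call in KD embryos (FDR = 0.244), and KD was lower than control (log2 fold change -1.29 ± 0.14, FDR = 0.00422). *sox17b.1*, an early endoderm factor that has close copies, fell in both groups, with 0.712, 0.135 and 0.248 CPM in KD embryos, 0.248, 0.184 and 0.504 CPM in control embryos and 17.8 CPM at stage 20 (log2 fold change -5.56 ± 0.55, FDR = 0.000987 for KD).

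Of 51 pronephric kidney genes 11 rose and 21 fell in KD embryos, against 12 and 21 in control embryos, with 4 lower and 4 higher in KD than in control (14 and 4 with the block; 5.35% of all genes were lower and 5.29% higher). Without control library 3 they were 0 and 1 and without KD library 1 they were 1 and 2, while the lower count was 0 without KD library 3 and 2 without control library 1, and the higher count was 2 without control library 2. The median of this list in KD embryos, -0.18, turned to 0.035 with scaling by library size alone. In the main fit 21.6% of the list rose and 41.2% fell in KD embryos, against 19.1% and 17.1% of all genes. The kidney list also names genes of other lists, among them *pax2* and *irx3* of the neural progenitor list. Its counts are therefore not of kidney alone. *slc12a1*, the sodium, potassium and chloride transporter of the diluting tubule, had 5.0, 10.7 and 6.52 CPM in KD embryos, 15.4, 24.8 and 17.2 CPM in control embryos and 31.6 CPM at stage 20, a fall in KD embryos (log2 fold change -2.1 ± 0.38, FDR = 0.00751) with no call in control embryos (FDR = 0.201). KD lay below control for *slc12a1* (log2 fold change -1.37 ± 0.30, FDR = 0.0353), a call lost without KD library 3 (FDR = 0.119) or control library 3 (FDR = 0.104). *lrp2*, the endocytic receptor megalin of the proximal tubule, had 170.3, 173 and 164 CPM in KD embryos, 82.5, 76.5 and 86.5 CPM in control embryos and 121 CPM at stage 20. Its KD libraries were all above stage 20 and its control libraries all below, with no call on either and KD higher than control (log2 fold change 1.05 ± 0.10, FDR = 0.00303). *slc3a1*, an amino acid transporter subunit, fell in both, with 3.82, 1.58 and 2.08 CPM in KD embryos, 3.59, 2.69 and 3.45 CPM in control embryos and 40.7 CPM at stage 20 (log2 fold change -4.02 ± 0.38, FDR = 0.000909 for KD).

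Surface ectoderm genes mostly fell with or without the knockdown. Of 69 genes of the epidermis, hatching gland and cement gland 40 fell and 5 rose in KD embryos, against 41 and 6 in control embryos, with medians of -0.94 and -0.91. In KD 6 were lower and 1 higher than in control (7 and 6 with the block), against 5.35% and 5.29% of all genes. The lower count was 2 without control library 3 and 3 without any 1 of the KD libraries, and the higher count was 0 without control library 1 or KD library 2 and 2 without control library 2. The 5 rises in KD embryos were 3 without KD library 3. *tgm1*, a transglutaminase that cross-links the outer layer of skin, had 1.69, 1.73 and 2.74 CPM in KD embryos, 15.2, 9.28 and 12.1 CPM in control embryos and 24.6 CPM at stage 20, a fall in KD embryos (log2 fold change -3.57 ± 0.32, FDR = 0.000818) to below control (log2 fold change -2.56 ± 0.27, FDR = 0.00356). *uvs.2*, a hatching enzyme, had 586, 534 and 559.6 CPM in KD embryos, 486, 191 and 445 CPM in control embryos and 130.5 CPM at stage 20 and rose (log2 fold change 2.1 ± 0.50, FDR = 0.0186). The keratin gene *krt16* had 70.95, 25.7 and 88.5 CPM in KD embryos, 247, 197 and 374 CPM in control embryos and 48.7 CPM at stage 20: all control libraries were well above stage 20 (FDR = 0.0323), while KD libraries lay on both sides of it. The keratin family has many close copies, and read pairs that matched transcripts of more than 1 gene had been discarded, so levels of single keratins are uncertain.

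Of 52 motile cilia genes 27 fell and 1 rose in KD embryos, against 38 and 1 in control embryos, with medians of -0.75 and -1.02, and 1 was lower and 4 higher in KD than in control (7 higher with the block, and 2 without KD library 1 or control library 3; 5.29% of all genes were higher). The 27 falls in KD embryos were 18 without KD library 2 or 3 and 22 with scaling by library size alone. The 38 falls in control embryos were 31 without control library 2. *dnah11*, a dynein heavy chain of the ciliary arms, had 7.68, 7.298 and 5.21 CPM in KD embryos, 9.46, 8.57 and 7.39 CPM in control embryos and 66.01 CPM at stage 20 and fell in both (log2 fold change -3.3 ± 0.23, FDR = 0.000426 for KD). *dnah5*, also a dynein arm heavy chain, had 47.9, 43.7 and 34.4 CPM in KD embryos, 21.3, 20.1 and 21.9 CPM in control embryos and 59.4 CPM at stage 20, all KD libraries lying above all control libraries (log2 fold change 0.99 ± 0.15, FDR = 0.00991). *foxj1*, the regulator that switches on motile cilia genes, had 93.1, 62.5 and 80.8 CPM in KD embryos, 38.99, 23.6 and 43.6 CPM in control embryos and 69.5 CPM at stage 20: it fell in control embryos (FDR = 0.0554), while KD libraries lay on both sides of stage 20 (FDR = 0.717), and KD was higher than control (log2 fold change 1.16 ± 0.24, FDR = 0.0308).

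Hox genes, which specify position along the axis, were counted by paralogue group, and differences between these groups were not tested. Of 12 genes of groups 1 to 4, 4 fell and 1 rose in KD embryos, against 8 and 1 in control embryos. *hoxb3* had 80.6, 77.9 and 83.6 CPM in KD embryos, 40.3, 31.97 and 52.8 CPM in control embryos and 68.9 CPM at stage 20 and *hoxd3* had 32.4, 32.8 and 30.8 CPM in KD embryos, 14.9, 17.6 and 21.5 CPM in control embryos and 40.96 CPM at stage 20, and both were higher in KD than in control (log2 fold changes of 0.95 and 0.83, FDR = 0.0212 and 0.0197). Of 10 genes of groups 5 to 8, 8 fell and none rose in KD embryos, against 6 and 0 in control embryos, and none differed by the test between KD and control (1 was higher with the block). The 8 falls in KD embryos were 5 without any 1 of the KD libraries. *hoxa7* had 12.1, 9.38 and 12.3 CPM in KD embryos, 11.8, 8.61 and 15.4 CPM in control embryos and 36.5 CPM at stage 20 (log2 fold change -1.7 ± 0.29, FDR = 0.00603 for KD). Of 13 genes of groups 9 to 13, 5 fell and none rose in KD embryos, against 6 and 1 in control embryos (0 rose without control library 3 and 2 without control library 1), and 5 were lower and 2 higher in KD than in control. The lower count was 1 without control library 3, 2 without KD library 3 and 3 without KD library 1 or control library 1, and the higher count was 1 without control library 2 and 0 without any other 1 library. *hoxc13*, of the most posterior group, had 0.50, 1.63 and 1.34 CPM in KD embryos, 6.53, 6.67 and 9.42 CPM in control embryos and 4.61 CPM at stage 20: every KD library lay below stage 20 (log2 fold change -2.01 ± 0.49, FDR = 0.0202) and every control library above it, though control gave no call (FDR = 0.315). KD was lower than control for *hoxc13* (log2 fold change -2.72 ± 0.39, FDR = 0.0086). *hoxd13* had 2.67, 3.69 and 4.05 CPM in KD embryos, 6.79, 6.56 and 10.2 CPM in control embryos and 4.02 CPM at stage 20, which was a rise in control embryos (FDR = 0.0842) and no call in KD embryos (FDR = 0.674). KD was lower than control (log2 fold change -1.17 ± 0.25, FDR = 0.0322), a call lost without control library 3 (FDR = 0.114).

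Genes of protein synthesis and respiration rose in both groups. Of 72 ribosomal protein genes 60 rose and none fell in KD embryos, against 62 and 0 in control embryos (medians of 0.81 and 0.74), and 1 was lower and none higher in KD than in control. That 1 call was lost without control library 1, control library 3 or KD library 2. The 60 rises in KD embryos were 50 without KD library 2 and 44 without KD library 3. The 62 rises in control embryos were 37 without control library 3. *rps21*, of the small subunit, had 604, 756 and 749 CPM in KD embryos, 481, 574 and 533 CPM in control embryos and 331 CPM at stage 20 (log2 fold change 1.09 ± 0.21, FDR = 0.00956 for KD). Of 68 oxidative phosphorylation genes 49 rose and 1 fell in KD embryos, against 60 and 0 in control embryos (medians of 0.77 and 1.05). Of the 60 that rose in control embryos 10 were not called in KD embryos, against 858 of 3337 (25.7%) over all genes. Relative to control 4 were lower and 1 higher in KD (5.35% and 5.29% of all genes). *uqcrc2*, a core subunit of complex III, had 306, 355 and 383 CPM in KD embryos, 436, 451 and 407 CPM in control embryos and 115 CPM at stage 20 and rose (log2 fold change 1.6 ± 0.20, FDR = 0.00194). The 1 that fell was *ndufb5*, of complex I, with 21.3, 28.8 and 25.9 CPM in KD embryos, 81.7, 92.7 and 80.9 CPM in control embryos and 50.9 CPM at stage 20: KD embryos were below stage 20 (log2 fold change -1.01 ± 0.19, FDR = 0.00813) and control embryos above it (FDR = 0.0313). Replication and mitosis genes changed little by the test. Of 98 tested, 9 fell and 3 rose in KD embryos, against 7 and 3 in control embryos. With scaling by library size alone 8 rose and 5 fell in KD embryos, so the balance rests on the scaling. The 9 falls in KD embryos were 24 without KD library 1 and 5 without KD library 2 or 3, the 3 rises were 1 without KD library 3, and the 7 falls in control embryos were 4 without control library 2 and 3 without control library 3. *pcna*, the clamp of the replication fork, had 880.5, 583 and 725 CPM in KD embryos, 624, 456 and 503 CPM in control embryos and 315 CPM at stage 20 and rose (log2 fold change 1.21 ± 0.29, FDR = 0.0188), and *cdt1*, which licenses replication origins, had 132, 73.6 and 91.1 CPM in KD embryos, 145, 80.3 and 105 CPM in control embryos and 236 CPM at stage 20 and fell (log2 fold change -1.25 ± 0.36, FDR = 0.0343).

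Genes that respond to p53, a transcription factor activated by cell stress, were followed because morpholinos can induce them. Of 31 tested, 12 rose and 4 fell in KD embryos, against 9 and 6 in control embryos, with medians of 0.42 and 0.39, and 1 was lower and 5 higher in KD than in control (9 higher with the block, and 3 without control library 3). *ccng1*, cyclin G1, had 1258, 1686 and 1833 CPM in KD embryos, 638, 943 and 737 CPM in control embryos and 132 CPM at stage 20. *eda2r*, a receptor of the TNF family, had 48, 45.4 and 64.4 CPM in KD embryos, 12.1, 19.02 and 16.4 CPM in control embryos and 1.82 CPM at stage 20. Both rose in KD embryos (log2 fold change 3.6 ± 0.36, FDR = 0.00103, and log2 fold change 4.86 ± 0.40, FDR = 0.000598), and both were also above stage 20 in every control library. *mdm2*, the ligase that degrades p53, had 37.1, 34.2 and 42.3 CPM in KD embryos, 19.2, 20.9 and 20.6 CPM in control embryos and 15.4 CPM at stage 20, and *tp53inp1*, a p53-induced nuclear protein, had 21.7, 19.6 and 22.7 CPM in KD embryos, 4.92, 8.601 and 6.51 CPM in control embryos and 5.98 CPM at stage 20. The 4 genes were higher in KD than in control (log2 fold changes of 1.04, 1.73, 0.90 and 1.67, FDR = 0.0246, 0.00536, 0.0084 and 0.00601), and the call on *ccng1* was lost without control library 3 (FDR = 0.114). Other members of the list fell from stage 20 in both groups. *btg2* had 42.5, 42.2 and 43.75 CPM in KD embryos, 66.7, 54.1 and 50.3 CPM in control embryos and 104.3 CPM at stage 20. *gadd45a* had 32.7, 30.7 and 32.4 CPM in KD embryos, 24.1, 20.5 and 26.4 CPM in control embryos and 52.7 CPM at stage 20. Their log2 fold changes in KD embryos were -1.28 and -0.72 (FDR = 0.00271 and 0.0199), with no call against control. The part of the p53 response genes in the other differences between KD and control embryos was not tested.

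**Figure D5:**
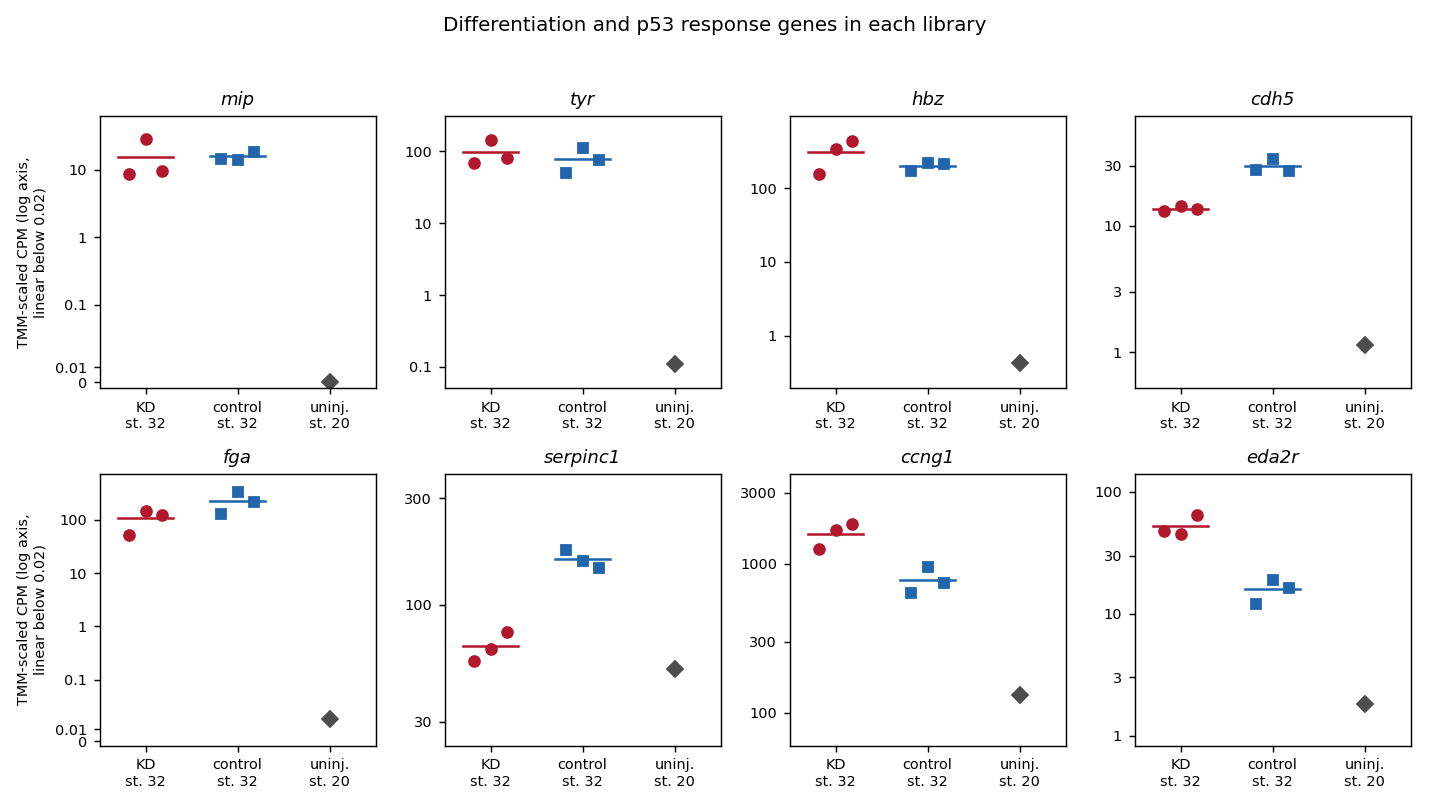
Level of 8 genes of lens (*mip*), pigment (*tyr*), blood (*hbz*), vessels (*cdh5*), liver (*fga*), the gut, liver and pancreas list (*serpinc1*) and the p53 response (*ccng1*, *eda2r*) in each library, in TMM-scaled CPM on a log axis (linear below 0.02), with group means as lines. All KD libraries (red) lie above stage 20 (grey) in the 8 panels; *cdh5*, *serpinc1*, *ccng1* and *eda2r* show KD and control libraries (blue) apart.

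The largest changes of KD embryos from stage 20 were ranked by fitted fold, except that genes with no more than 3 reads at stage 20 were ranked by their fold over 3 reads, so that their place is a lower bound. Of the 10 largest rises in this ranking, all were also called higher in control embryos, and they included *mip*, *fga*, *rbp4*, *tyr*, *hbz* and *stmn4*, along with *fgg*, the gamma chain of fibrinogen, with 29.8, 104 and 119 CPM in KD embryos, 97.99, 285 and 180.2 CPM in control embryos and 0.0463 CPM at stage 20, and *crygdl.9*, a gamma crystallin with close copies, with 5.37, 27.4 and 11.2 CPM in KD embryos, 9.83, 14.5 and 13.01 CPM in control embryos and 0.0278 CPM at stage 20. Of the 10 largest falls all but *eln2* were also called lower in control embryos. They were *mespb*, *msgn1*, *eln2*, *Xbra3*, *mespa*, *cdx1*, *slc15a5*, *sox17b.2*, *slc5a8* and *LOC100488863*. *slc5a8*, a monocarboxylate transporter, had 2.12, 1.53 and 1.38 CPM in KD embryos, 4.45, 3.43 and 3.58 CPM in control embryos and 96.9 CPM at stage 20 (log2 fold change -5.85 ± 0.25, FDR = 0.000146 for KD). Among genes whose change after stage 20 in control embryos was most reduced in KD embryos, the keratin gene *krt18l* had 0.875, 3.14 and 1.16 CPM in KD embryos, 38.8, 58.1 and 36.9 CPM in control embryos and 2.46 CPM at stage 20: control embryos rose above stage 20 (FDR = 0.00675), and KD embryos gave no call against it (FDR = 0.524) and lay below control (log2 fold change -4.73 ± 0.47, FDR = 0.00303). *kera*, the corneal proteoglycan keratocan, had 0.00962, 0.0736 and 0.0355 CPM in KD embryos, 0.417, 1.49 and 0.607 CPM in control embryos and 0.0371 CPM at stage 20, with a rise in control embryos (FDR = 0.0249) and none called in KD embryos. In the other direction *crispld2*, a secreted cysteine-rich protein, had 7.35, 7.63 and 13.01 CPM in KD embryos, 1.43, 1.25 and 0.995 CPM in control embryos and 0.1297 CPM at stage 20, which was a rise in both groups and a larger one in KD embryos (log2 fold change 2.92 ± 0.30, FDR = 0.00327).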

How the data were processed

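Poly(A) RNA of whole *X. tropicalis* embryos had been sequenced as read pairs. The authors called bases with CASAVA 1.8, mapped read pairs with Bowtie 0.12.7 to the Ensembl JGI4.1 transcriptome, discarded pairs that hit transcripts of different genes and deposited raw read counts per transcript, 24160 transcripts by 7 libraries. Their own tests used DESeq. Counts are not corrected for length, and genes with near-identical copies can lose reads.

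Groups and replicate numbers were taken from the labels. Counts were summed over the transcripts of each of 19884 genes, of which 15623 carry a symbol (711 of these symbols came from RefSeq by protein identifier). The 17054 genes with at least 10 reads over the 7 libraries were fitted with edgeR 4.0.16 (R 4.3.3, limma 3.58.1), using TMM scaling and the quasi-likelihood test over all 7 libraries, with 1 term per group and Benjamini-Hochberg adjustment over all genes. P-values measure the spread between the deposited biological replicates of KD and of control embryos. The stage 20 library had no replicate, so p-values against it measure no spread between stage 20 embryos. They rest on the assumption that this library varied like the KD and control libraries. In rankings and bounds a floor of 3 reads, 0.0263 to 0.0388 CPM, stood in for groups with no library above 3 reads. Intervals on such counts cover counting error only. On simulated counts for KD against stage 20, over 17054 genes, 26 of 100 genes changed 2-fold and 80 of 100 changed 4-fold were recovered, and 8 of 114 calls fell on unchanged genes. In the data 6731 genes had an FDR below 10% in this comparison. With so few genes changed, the simulation had a stricter threshold on the unadjusted p, and its recovery does not measure that of the reported calls. Genes with no call can still have changed.

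Same-numbered KD and control libraries deviated together from their group means. Pearson's r across genes was 0.72, 0.73 and 0.36 for numbers 1, 2 and 3, against -0.65 to 0.077 for other pairs. The replicate numbers of the labels were therefore taken to pair these samples, and a fit with that number as a block was set beside the main one. This pairing was inferred from the same counts that the blocked fit then tested. Deviations of 3 libraries from their own mean are not independent, so calls made only with the block carry that limit. The members and gene lists were chosen with earlier results of these data known. Named were the targeted genes, genes the study text names for these libraries, the 10 largest rises and falls in KD against stage 20 and the 10 genes most below and most above control among those called in control against stage 20, where the group with more reads averaged 20 or more. In each list the 4 largest rises, the 4 largest falls and the 3 largest differences between KD and control that were called could be named. *wnt3a*, *cdx4*, *hes7.2*, *bmp4*, *mylpf*, *tnnc2*, *myoz2*, *lox*, *zic1*, *serpinc1* and *mdm2* were chosen after their values were seen. Alternatives were DESeq2 (version 1.42.0), its size factors, library size alone, other filters, legacy dispersions, 1 transcript per gene, subsets of groups, stricter thresholds and each replicate left out.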

Additional observations from a re-analysis of the deposited data

Results flagged for a closer look

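A set of 18 genes with a symbol was called in opposite directions against stage 20 in the 2 kinds of stage 32 embryo, where one of KD and control averaged 20 reads or more. The difference itself was also called in KD against control by edgeR's quasi-likelihood test. Opposite calls of at least 1.5-fold from the same library already imply such a difference, so that call is not separate evidence. The set was picked out after their values were seen, and both calls against stage 20 rest on the same stage 20 library. Lower than stage 20 in KD embryos and higher in control embryos were *otos*, *epyc*, *tnn*, *col11a2p*, *kazald1*, *tnnc1*, *ndufb5*, *XB-GENE-5815090*, *tnnt3*, *farsa* and *tpm1*. Their log2 fold changes of KD against control were -4.91 for *otos* (otospiralin), -3.74 for *epyc*, -3.47 for *tnn* (tenascin N), -2.54 for *col11a2p* (a fibrillar collagen), -1.9 for *kazald1*, -1.77 for *tnnc1*, -1.75 for *ndufb5*, -1.56 for *XB-GENE-5815090*, -1.48 for *tnnt3* (fast troponin T), -1.39 for *farsa* (an aminoacyl-tRNA synthetase subunit) and -1.24 for *tpm1* (tropomyosin). Higher than stage 20 in KD embryos and lower in control embryos were *LOC100490748* (3.52), *LOC100488539* (3.01), *kdm6b*, a histone H3 lysine demethylase (1.68), *frmd4a* (1.57), *znf608* (1.51), *mst1r*, a receptor tyrosine kinase (1.5), and *tmem184a* (1.36).

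The call of KD against stage 20 was lost without KD library 3 for *otos* (FDR = 0.187), *epyc* (FDR = 0.105), *tnn* (FDR = 0.123), *mst1r* (FDR = 0.116), *farsa* (FDR = 0.177) and *tpm1* (FDR = 0.141). It was also lost without KD library 1 for *otos* (FDR = 0.165) and *farsa* (FDR = 0.165), and without KD library 2 for *farsa* (FDR = 0.111) and *tpm1* (FDR = 0.152). The change fell short of 1.5-fold without KD library 3 for *tnnt3* (log2 fold change -0.55) and *tmem184a* (0.58) and without KD library 1 for *XB-GENE-5815090* (-0.56).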

How the results depend on the processing

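No call turned its direction under any alternative. Against stage 20, KD embryos gave 2691 to 3666 higher and 2320 to 2940 lower genes when 1 library was left out (3258 and 2915 with all), 1738 lower genes at a 2-fold threshold, and 3874 higher and 2052 lower with scaling by library size alone; control embryos gave 1832 lower genes at 2-fold. KD against control depended most on the setting. Higher genes numbered 902 in the main test, 556 at an FDR below 5%, 467 at 2-fold, 1654 with the replicate block and 407 to 806 with 1 library left out. Lower genes numbered 912, 599, 419, 1517 and 452 to 845 under the same settings. The median of the pronephric kidney list in KD embryos turned to 0.035 with library size alone, and 18 other list medians moved by more than the spread between the KD libraries without a change of sign. Of the called genes that could be named, 168 of 201 kept their call against stage 20, and 81 of 122 against control, without each library in turn. No paired analysis was possible because the stage 20 library is single and pairs with no KD library, so the block entered only KD against control. The unreplicated stage 20 library limits all changes over time. Folds of transcripts near the floor of 3 reads are uncertain, and those that were fitted or given with a Poisson interval are not bounds. The causes of these dependences were not tested.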
